A study of Mus musculus with 18 samples.

Results

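The genes described here are the nuclear-encoded subunits of the mitochondrial respiratory chain and of ATP synthase, 83 of the 23626 gene entries used. They were taken by name: every symbol starting with Ndufa, Ndufb, Ndufc, Ndufs or Ndufv and a number, the genes Sdha to Sdhd, and the families Uqcr, Cox4 to Cox8 (with a letter A to C) and Atp5. By complex, 38 entries fell in complex I, 4 in complex II, 8 in complex III, 16 in complex IV and 17 in complex V. Ndufa4 was counted with complex I by its name, although its protein is known as part of complex IV, and Cox7a2l and Atp5s were kept although they are known as a supercomplex factor and an ATP synthase-related factor. The name patterns leave out Cox4i1, Cyc1, Cycs, Ndufab1 and a few others, which are described separately below.

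RNA was sequenced from 18 libraries of YFP-sorted mouse thyroid cells, labelled as thyrocytes and taken at 20 weeks without treatment. Of the 15 tumour libraries, all of which carried BrafV600E (an activated Braf kinase), 4 also carried K5-Tert, a transgene in which a keratin 5 promoter drives Tert (K5-Tert tumours), 7 also carried Tert-123C>T, a single-base change in the Tert promoter (Tert-123 tumours), and 4 had BrafV600E alone (Braf tumours). The other 3 libraries were pools without BrafV600E, 1 from K5-Tert mice, 1 from Tert-123C>T mice and 1 from wild-type mice, so each of these genotypes is a single library. The source field of the pools also reads thyroid tumor, and they are called pools here. Tert encodes the enzyme part of telomerase, and the series concerns the effects of raising it in Braf-driven thyroid cancer. The labels do not give the Cre driver, the sex, the number of mice in a pool or the batches, and do not say that tumours came from separate mice, so the p-values measure the spread between these libraries.

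Complexes I and II pass electrons from NADH and succinate to ubiquinone, complex III hands them on to cytochrome c, complex IV reduces oxygen, and the proton gradient that complexes I, III and IV build drives ATP synthase, complex V. A few core subunits of complexes I, III, IV and V are encoded in mitochondrial DNA (not analysed here), and all others are nuclear genes whose promoters often carry sites for the factors NRF1 and GABP. In the thyroid, follicular cells need energy and peroxide for hormone synthesis, and oncocytic thyroid tumours are known for cells crowded with mitochondria.

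Levels are in TPM, a transcript's share of its library corrected for transcript length, and the read depth is unknown. A test was run for the 77 of 83 entries with at least 10 TPM in 4 or more libraries. The noncoding RNA Rpph1 took 43.7% to 68.8% of all TPM, and K5-Tert tumours 2, 3 and 4 stood apart, with low Malat1, a nuclear RNA (1191, 1908 and 1050 TPM), which the Braf tumours held at 5762 to 7496 TPM. Tert, the gene raised by the transgene, had 73.9, 11.2, 19.0 and 53.4 TPM in K5-Tert tumours, 2.65 to 6.23 TPM in Tert-123 tumours and 3.78 to 5.12 TPM in Braf tumours. Thyrocyte markers summed to 419 to 1335 TPM over the tumours, against 26948 to 33428 TPM in the pools. Tg made up most of the pool sums (30045, 25676 and 31240 TPM in the K5-Tert, Tert-123 and wild-type pools). Of 7 tested markers, 5 were lower in tumours than in pools (limma, adjusted p under 0.05), where 10% of all entries were, and 2 had a fold change above 0. Hhex, for example, had 128 to 174 TPM in Braf tumours and 104, 30.2 and 58.2 TPM in these pools. The list holds 13 markers, and a gene high in the pools alone cannot reach 10 TPM in 4 libraries. Dio1, untested, had 340, 217 and 294 TPM in the same pools and at most 3.03 TPM in tumours. Slc5a5, Duox2 and Duoxa2, also untested, were higher in every pool than in any tumour. Of the other untested markers, Tshr overlapped, and Slc26a4 had at most 0.872 TPM in pools and up to 12.4 TPM in tumours. In such libraries fewer cells of a type and less RNA per cell cannot be told apart.

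Summed, the 83 entries reached 9453, 10054, 11739 and 9891 TPM in the K5-Tert tumours. The Tert-123 tumours had 6946 to 16628 TPM with a median of 10577 TPM, and the Braf tumours had 8747, 8251, 10486 and 9411 TPM. The lowest and the highest sums were both found among Tert-123 tumours, and the ranges of all tumour groups overlapped. As a share of the TPM that remained without Rpph1, the subunits made up 2.27%, 3.22%, 2.63% and 3.06% in K5-Tert tumours, against 2.34%, 2.03%, 2.29% and 2.19% in Braf tumours, so that K5-Tert tumours 2, 3 and 4 lay above every Braf tumour and K5-Tert tumour 1 among them. The Tert-123 tumours had 2.13% to 2.95% (median 2.27%). Tumour 7 of that group (2.95%) lay above K5-Tert tumours 1 and 3, and its next highest tumour had 2.44%. The pools had 3.08% (K5-Tert), 2.85% (Tert-123) and 2.69% (wild type).

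**Figure D1:**
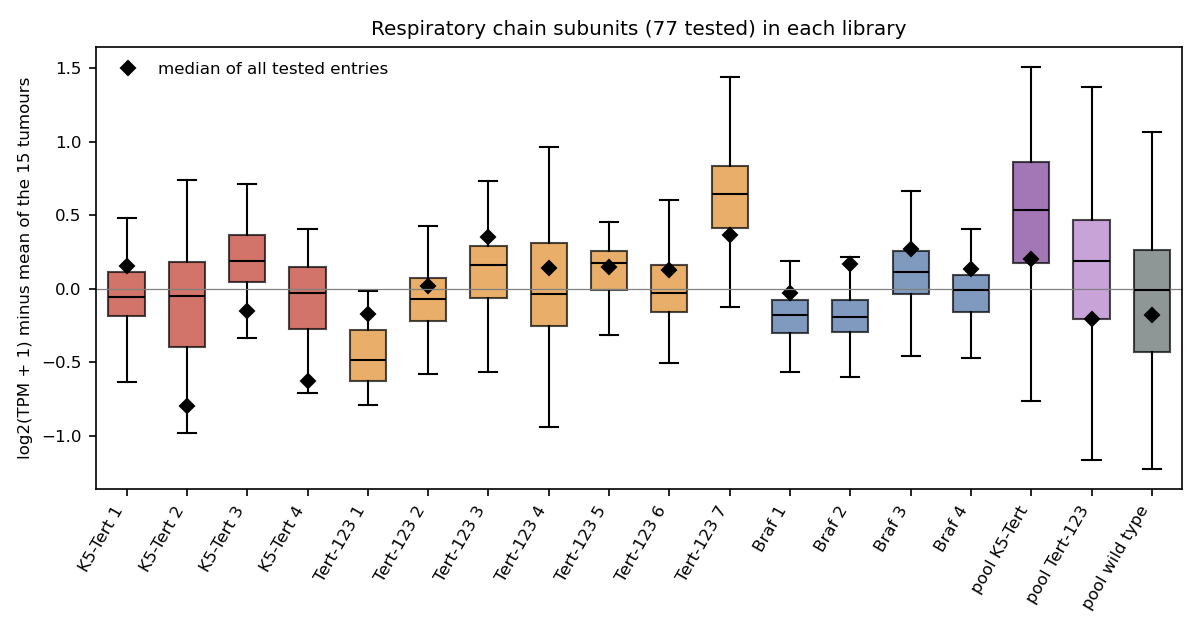
Difference of log2(TPM + 1) from the mean of the 15 tumours for the 77 tested subunits in each library (box: median and quartiles; whiskers: to 1.5 times the interquartile range; diamonds: median of all 7825 tested entries). The subunits stay near 0 in K5-Tert tumours 2 and 4, where the median of all entries is at -0.80 and -0.63, and Tert-123 tumour 7 has the highest subunit median of the tumours, 0.65.

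Within each complex the levels spread widely. The tested complex I subunits had group means of 13.3 to 306 TPM in K5-Tert tumours, with a median of 58.2 TPM, against 13.0 to 275 TPM and a median of 50.6 TPM in Braf tumours. Ndufa4 had the highest mean over all 15 tumours, although Ndufa6 was higher in K5-Tert tumours and Ndufa3 in Braf tumours. It was at 345, 307, 225 and 239 TPM in K5-Tert tumours, against 216, 244, 315 and 277 TPM in Braf tumours. The succinate dehydrogenase genes of complex II were the lowest as a group, with group medians of 49.3 TPM (K5-Tert), 55.6 TPM (Tert-123) and 50.4 TPM (Braf). Uqcr11, a small subunit of complex III, led its complex at 243, 339, 313 and 234 TPM in K5-Tert tumours, against 307, 259, 333 and 308 TPM in Braf tumours.

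Cox6c, a small subunit of complex IV, was the most abundant member of all. It reached 1124, 1647, 1812 and 1533 TPM in K5-Tert tumours, 811 to 2479 TPM (median 1163) in Tert-123 tumours, and 1264, 841, 1392 and 986 TPM in Braf tumours. These groups overlapped, and the log2 fold change of 0.45 (SE 0.30) between K5-Tert and Braf tumours did not pass (limma, adjusted p = 0.258). Atp5k, the e subunit of ATP synthase, led complex V at 386, 416, 564 and 636 TPM in K5-Tert tumours, against 462, 332, 524 and 458 TPM in Braf tumours, again with overlap.

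The promoters of these genes were searched for the letters that NRF1, GABP and YY1 are known to bind, in the 250 bases before each RefSeq start (GRCm38.p6), on both strands. Of the 83 members, 66 matched the RefSeq table, with 71 windows. The NRF1 letters (GCGCA and GCGC with any base between them) stood in 14 of the 71 windows (19.7%), against 3.74% of all 32851 windows. CCGGAAG, a core bound by ETS factors such as GABP, stood in 12 (16.9%), against 6.91% of all windows, and AAGATGGC, the YY1 letters, stood in 1 (1.41%), against 1.57%. A match describes the letters only, and no binding was measured. The windows of Ndufa1, Ndufb8, Ndufa13 and Ndufa12, described below, held none of these letters. Printed here are 3 windows that hold the NRF1 letters, of genes described below, Sdha (chr13:74350241-74350490, minus strand), which has 3 NRF1 matches, Ndufs5 (chr4:123718187-123718436, minus strand) and Atp5k (chr5:108434400-108434649, minus strand), each 5′ to 3′ along the gene with the NRF1 letters in capitals.
Sdha: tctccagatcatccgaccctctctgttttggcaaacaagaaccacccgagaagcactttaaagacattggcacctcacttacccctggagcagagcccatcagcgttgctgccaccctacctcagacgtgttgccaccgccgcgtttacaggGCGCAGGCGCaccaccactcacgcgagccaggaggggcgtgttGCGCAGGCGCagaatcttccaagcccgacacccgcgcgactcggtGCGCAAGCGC
Ndufs5: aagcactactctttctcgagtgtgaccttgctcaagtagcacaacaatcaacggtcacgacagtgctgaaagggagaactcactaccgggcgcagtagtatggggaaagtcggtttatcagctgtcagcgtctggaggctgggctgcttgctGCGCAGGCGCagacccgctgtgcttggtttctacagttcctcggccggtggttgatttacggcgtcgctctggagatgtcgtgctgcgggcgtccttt
Atp5k: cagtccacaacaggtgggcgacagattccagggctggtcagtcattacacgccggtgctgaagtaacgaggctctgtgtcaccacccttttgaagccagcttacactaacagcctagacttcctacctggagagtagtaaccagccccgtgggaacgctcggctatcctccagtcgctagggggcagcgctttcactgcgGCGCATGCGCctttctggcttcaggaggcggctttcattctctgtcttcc
In Sdha the matches begin 98, 55 and 10 bases before the start, in Ndufs5 98 bases and in Atp5k 50 bases before it.

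K5-Tert tumours were compared with Braf tumours to ask what strong Tert expression adds. The sample titles of the K5-Tert tumours all carry higher numbers than those of the other tumours, and if they were handled apart from the rest, handling and genotype cannot be told apart. On the deposited scale, the subunits as a group sat at about the same level in both, while most other entries had lower values in K5-Tert tumours. Of the 77 subunits, 0 were higher and 0 lower (limma, adjusted p under 0.05), against 0.626% of all 7825 entries called higher and 21.2% called lower, and 2 subunits had an unadjusted p under 0.05. Their median log2 fold change was 0.08, with 41 of 77 above 0, against a median of -0.47 over all entries. When libraries were first scaled so that the typical gene was equal (factors of the TMM type), 21 subunits rose and 0 fell, against 6.21% and 8.29% of all entries, and all 77 had a fold change above 0, with a median of 0.60 against 0.02 over all entries.

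By complex, 9 of 37 tested complex I subunits, 1 of 4 in complex II, 1 of 8 in complex III, 1 of 12 in complex IV and 9 of 16 in complex V rose on that scale. Complex V included Atp5a1 and Atp5b, the alpha and beta subunits of the catalytic head (log2 fold changes 0.51 and 0.68), Atp5c1, its central stalk (0.88), Atp5o, part of the peripheral stalk (0.99), and Atp5l, the g subunit of the membrane part (0.99), besides Atp5d, Atp5g2, Atp5h and Atp5mpl (0.71 to 0.88). Complex I included the iron-sulfur and core subunits Ndufs7 (0.64), Ndufs8 (0.82) and Ndufv2 (0.58), and the accessory subunits Ndufa6 (0.86), Ndufa13 (1.04), Ndufb6 (0.78), Ndufb8 (0.92) and Ndufs5 (1.70). Sdhb, the iron-sulfur subunit of succinate dehydrogenase, had 0.97, Uqcrc1, a core protein of complex III, had 0.73, and Cox7c, a small subunit of complex IV, had 0.75.

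These calls were lost when K5-Tert tumours 2 and 4 were left out: 0 subunits were then called on the scaled values (median 0.31, lowest limma adjusted p 0.0527) and 0 as deposited. Fewer libraries also give the test less power, and no other pair of K5-Tert tumours was left out for comparison. With K5-Tert tumour 1 alone, taken to vary as the other groups do, the scaled median was 0.00. Transcript length moved with the same libraries: the tested subunits are short, with a median of 718.5 nt against 2571 nt over all entries, and across all entries the deviation of a gene from the tumour mean correlated with its length at a Spearman rho of -0.51, -0.22 and -0.40 in K5-Tert tumours 2, 3 and 4, of 0.29 in K5-Tert tumour 1, and of 0.11 to 0.33 in Braf tumours. With the length trend of each library and its mean removed, 11 subunits rose and 0 fell, with a median of 0.22, against 4.01% of all entries called higher, 6.21% called lower and a median of 0.01. Cytosolic ribosomal protein genes had 49 of 74 higher on the scaled values and 10 of 74 as deposited. Markers of other cell types differed too: pericyte and smooth muscle markers summed to 40.4 to 191 TPM in K5-Tert tumours, against 17.5 to 36.2 TPM in Braf tumours, and thyrocyte markers to 419 to 563 TPM, against 634 to 805 TPM. The thyrocyte list was mixed. As deposited, 3 of 7 tested markers fell, where 21.2% of all entries did, and 2 had a fold change above 0. Tg had 84.1, 272, 174 and 269 TPM in K5-Tert tumours, against 257, 96.5, 115 and 102 TPM in Braf tumours. The part of length and of these cell types in the subunits' values was not tested.

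**Figure D2:**
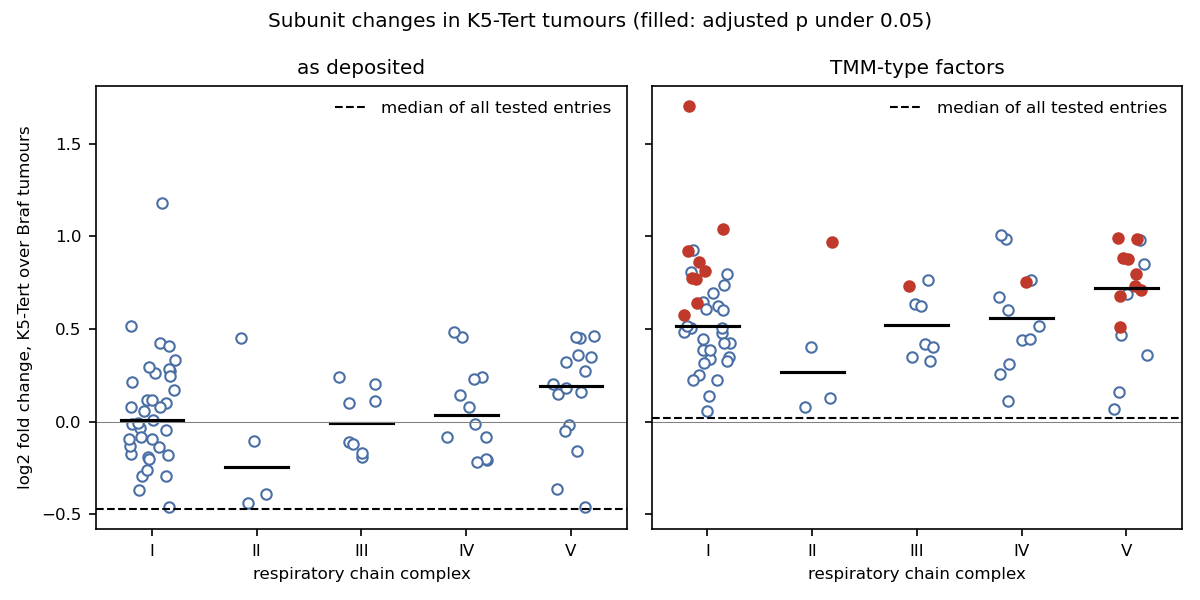
Log2 fold change of each tested subunit, K5-Tert over Braf tumours, by complex, as deposited (left) and with factors of the TMM type (right); filled points passed an adjusted p under 0.05, solid lines are the medians of a complex and the dashed line the median of all 7825 entries. The points keep their spread and move up as a whole with the scaling, with a median of 0.08 as deposited and 0.60 scaled, while the median of all entries is -0.47 as deposited and 0.02 scaled.

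Ndufa13, an accessory subunit of complex I also known as Grim19, was among the clearest single genes. It stood at 97.2, 99.1, 121 and 89.9 TPM in K5-Tert tumours, against 72.3, 66.1, 76.6 and 67.5 TPM in Braf tumours, so the groups did not overlap. Its log2 fold change was 0.52 (SE 0.23, limma adjusted p = 0.104) as deposited and 1.04 (SE 0.19, adjusted p = 0.00431) with the scaling. Atp5o, which holds the stator to the head of ATP synthase, had 133, 161, 167 and 167 TPM in K5-Tert tumours and 109, 112, 131 and 102 TPM in Braf tumours, without overlap. Its fold change as deposited was 0.46 (SE 0.25, adjusted p = 0.167). Cox7a2l, known for joining complexes III and IV, had 85.2, 102, 80.6 and 65.3 TPM in K5-Tert tumours and 45.9, 60.3, 66.7 and 63.6 TPM in Braf tumours, with slight overlap and an adjusted p of 0.204.

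The beta subunit of the ATP synthase head, Atp5b, where ATP is made, had 277 and 293 TPM in K5-Tert tumours 1 and 3 and 185 and 192 TPM in K5-Tert tumours 2 and 4, against 186, 203, 232 and 216 TPM in Braf tumours. K5-Tert tumours 1 and 3 were thus above every Braf tumour, K5-Tert tumour 2 was below them all, and K5-Tert tumour 4 was above the lowest alone. Its fold change was 0.15 (adjusted p = 0.604) as deposited and 0.68 (adjusted p = 0.00547) with the scaling. Atp5l had 183, 243, 255 and 231 TPM in K5-Tert tumours, against 142, 158, 179 and 182 TPM in Braf tumours, with every K5-Tert tumour higher (0.46, SE 0.24, limma adjusted p = 0.154 as deposited). Uqcrc1 was nearly constant in K5-Tert tumours, at 86.9, 92.0, 103 and 91.2 TPM, against 69.5, 83.7, 88.4 and 82.6 TPM in Braf tumours, with a slight overlap (0.20, adjusted p = 0.441 as deposited). Uqcrq, a small subunit of complex III, had 49.4, 53.1, 81.5 and 55.0 TPM in K5-Tert tumours and 49.4, 43.8, 64.5 and 42.6 TPM in Braf tumours, with overlap and an adjusted p of 0.487.

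The succinate dehydrogenase genes had unlike fold changes. Sdha, the flavoprotein that oxidises succinate, was at 58.8, 35.4, 64.0 and 47.8 TPM in K5-Tert tumours, against 59.0, 68.5, 75.1 and 72.9 TPM in Braf tumours, and its partner Sdhb at 58.2, 46.9, 66.7 and 46.5 TPM, against 32.3, 43.2, 50.2 and 33.7 TPM. All K5-Tert tumours but tumour 3 were below every Braf tumour for Sdha, while for Sdhb 2 K5-Tert tumours were above every Braf tumour. The fold changes were -0.44 (SE 0.22, adjusted p = 0.143) for Sdha and 0.45 (SE 0.28, adjusted p = 0.224) for Sdhb as deposited, and 0.08 (adjusted p = 0.696) and 0.97 (adjusted p = 0.0315) with the scaling. The membrane anchors Sdhc and Sdhd had -0.39 and -0.10 as deposited, and neither passed on either scale. The difference between Sdha and Sdhb within a library was not tested.

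Ndufs5, an accessory subunit of complex I, had the largest fold change of the tested members, 1.18 (SE 0.47, adjusted p = 0.0735). It was at 73.4, 94.8, 125 and 152 TPM in K5-Tert tumours, against 34.7, 35.1, 45.0 and 87.4 TPM in Braf tumours, where only tumour 4 reached the K5-Tert range. The table also holds BC002163, an entry near-identical to Ndufs5 in its coding sequence, which had lower values in K5-Tert tumours. It was at 14.1, 0.560, 2.20 and 1.89 TPM in K5-Tert tumours, against 23.3, 24.4, 41.8 and 15.7 TPM in Braf tumours. Reads of such a pair can be divided between the entries, and BC002163 took 16.1%, 0.587%, 1.72% and 1.23% of their sum in K5-Tert tumours, against 40.1%, 40.9%, 48.1% and 15.2% in Braf tumours. Summed, the pair had a fold change of 0.60 (SE 0.38, limma adjusted p = 0.247), less than for Ndufs5 alone.

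**Figure D3:**
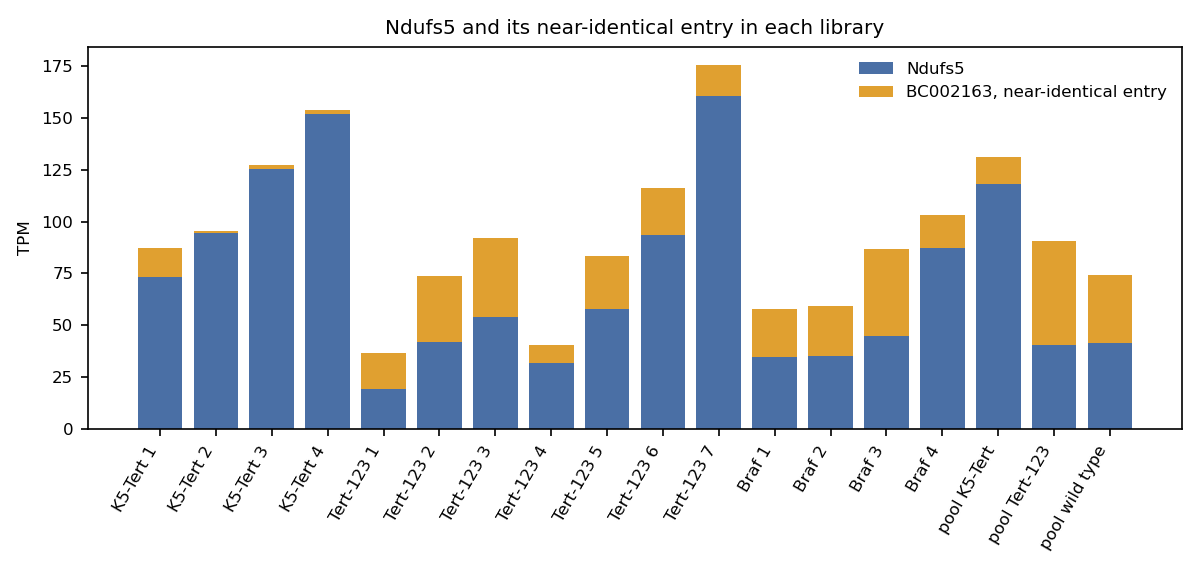
TPM of Ndufs5 (blue) and of the near-identical entry BC002163 (yellow) stacked for each library. K5-Tert tumours 2, 3 and 4 have almost no BC002163 (0.560 to 2.20 TPM), while it takes 15.2% to 48.1% of the stack in the Braf tumours.

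Near-identical copies concern other members too. For 21 of the 83, the GENCODE vM21 annotation held at least 1 other gene whose sequence matched at 95% identity or more over at least 80% of the coding sequence, most of them pseudogenes, with up to 8 for Atp5l. A copy had its own entry in the table for 5 members: Cox7c, Ndufb4, Ndufb4c, Ndufs5 and Uqcr10. No source used here says how the authors' counting treated such reads, so levels of these members are uncertain. Atp5g2, Atp5h, Atp5k, Atp5l, Atp5o, Cox6c and Uqcr11 are among the members with copies. So are Ndufa12 (1 copy) and Uqcrb (3 copies), which are called in comparisons below. Ndufa13, Ndufb8, Ndufa1 and the Sdh genes had none under this criterion.

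Tert-123 tumours were compared with Braf tumours to ask what the promoter change adds. No subunit passed: 0 of 77 were higher and 0 lower (limma), 0 had an unadjusted p under 0.05, and 0% of all entries were called in either direction. The median log2 fold change was 0.14, with 59 of 77 above 0, against 0.00 over all entries. It was 0.14 with factors of the TMM type, 0.08 with quantile normalization and 0.06 with TPM rescaled without Rpph1. Over all entries the medians under these settings were -0.003, -0.01 and -0.10. The highest was Ndufa12, an accessory subunit of complex I, at 0.57 (SE 0.27), with 28.4 to 101 TPM (median 51.0) in Tert-123 tumours and 34.2, 28.1, 33.2 and 37.5 TPM in Braf tumours. Others near it were Cox7a2 (0.45), Atp5k (0.45) and Atp5e, the epsilon subunit of ATP synthase (0.44), and none of these passed. Uqcrh, the hinge protein of complex III, had 145 to 650 TPM (median 279) in Tert-123 tumours and 199, 178, 211 and 246 TPM in Braf tumours (0.39, SE 0.29), with the highest value in tumour 7.

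As deposited, Tert-123 tumour 7 held the highest level of the 15 tumours for 52 of the 77 tested subunits, and Tert-123 tumour 1 the lowest for 35. The same count was not made over all entries, which moved the same way in these libraries, by less. In log2 units from the tumour mean, tumour 7 had medians of 0.65 for subunits and 0.36 for all entries. In tumour 1 these medians were -0.48 and -0.17. The subunits varied more among Tert-123 tumours (median SD of log2(TPM + 1) 0.43) than the typical gene did (0.35), whereas in K5-Tert tumours they varied less (0.29 against 0.55), and in Braf tumours about as much (0.20 against 0.21). These SDs were not tested against each other. Without Tert-123 tumour 7, the median fold change on the scaled values was 0.07.

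Set directly against Tert-123 tumours, K5-Tert tumours had 0 subunits higher and 1 lower of 77, against 0.805% of all entries higher and 28.5% lower. The median was -0.07, against -0.47 over all entries. The 1 that fell was Ndufa12, at 22.9, 18.7, 31.0 and 38.9 TPM in K5-Tert tumours and 28.4 to 101 TPM (median 51.0) in Tert-123 tumours, with overlapping ranges. Its log2 fold change was -0.86 (SE 0.27, limma adjusted p = 0.0271) as deposited and -0.34 (adjusted p = 0.377) with the scaling, and it was not called without K5-Tert tumour 2 (adjusted p = 0.129). Just outside the threshold were Atp5g3, a gene for the c subunit of the ATP synthase ring, and Sdha. Atp5g3 had 131, 102, 130 and 90.5 TPM in K5-Tert tumours and 112 to 279 TPM (median 185) in Tert-123 tumours, with overlap (-0.64, SE 0.24, adjusted p = 0.0526). Sdha, at 55.3 to 92.9 TPM (median 72.2) in Tert-123 tumours, had -0.52 (SE 0.20, adjusted p = 0.0537) as deposited and 0.00 with the scaling. Ndufs3, a core subunit of complex I, had 32.4, 23.6, 27.8 and 48.1 TPM in K5-Tert tumours and 28.2 to 75.3 TPM (median 48.9) in Tert-123 tumours, and Uqcrfs1, the Rieske iron-sulfur protein of complex III, 45.8, 31.8, 58.8 and 43.8 TPM, against 44.9 to 85.1 TPM (median 56.2). Neither passed (adjusted p = 0.0623 and 0.158).

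With factors of the TMM type, 21 subunits rose and 0 fell between K5-Tert and Tert-123 tumours, against 7.02% and 8.40% of all entries. The comparison shares its K5-Tert tumours with the one above, and 16 of the 21 were called in both. Ndufa13 had 0.80 (adjusted p = 0.00762) here. Cox7a2l, at 27.6 to 82.0 TPM (median 54.5) in Tert-123 tumours, had 1.17 (SE 0.29, adjusted p = 0.0163), beside 1.01 (adjusted p = 0.0515) against Braf tumours. Without K5-Tert tumours 2 and 4, 0 subunits were called in this comparison on either scale.

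The Braf mutation was compared with its absence over all 18 libraries, beside the Tert allele, to ask what differs between tumours and thyroid cells without the mutation. Here 6 of 77 subunits fell and 0 rose (limma), against 10% of all entries called lower and 15.4% called higher, so the share of subunits that fell was near that of all entries, while the share that rose was below it. The median of the subunits was -0.16, against 0.07 over all entries. Those that fell were 3 accessory subunits of complex I (Ndufa1, Ndufb8 and Ndufa13), Uqcrb of complex III, and Atp5k and Atp5d of ATP synthase. The filter needs at least 10 TPM in at least 4 libraries, which is more than there are pools. A gene at that level in the pools alone could not be tested, while a gene at that level in tumours alone could. The shares of all entries called higher and lower carry this limit.

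Ndufa1, a small membrane-arm subunit whose loss is known in human complex I deficiency, had the largest fall in this fit. It was at 72.3, 58.1, 106 and 105 TPM in K5-Tert tumours, 48.9 to 190 TPM (median 81.7) in Tert-123 tumours and 93.9, 71.2, 78.4 and 67.2 TPM in Braf tumours. The pools had 501 TPM (K5-Tert), 249 TPM (Tert-123) and 152 TPM (wild type), and only Tert-123 tumour 7 exceeded the lowest pool. The log2 fold change was -1.69 (SE 0.31, adjusted p = 0.000301). Leaving out each library in turn kept it between -2.04 and -1.27 and past the threshold all 18 times. The rank was not the same in each pool. In log2 units, the wild-type pool lay 0.97 above the mean of the Braf tumours for Ndufa1, 1.25 for Ndufb8 and 1.05 for Ndufa13.

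Ndufb8, a membrane-arm subunit often used as a marker of assembled complex I, was at 24.7, 27.0, 44.9 and 34.0 TPM in K5-Tert tumours, 15.6 to 37.2 TPM (median 29.1) in Tert-123 tumours and 27.9, 19.9, 21.6 and 26.3 TPM in Braf tumours. The pools had 78.8, 53.0 and 57.8 TPM (K5-Tert, Tert-123 and wild type), all above every tumour, and the fold change was -1.16 (SE 0.23, adjusted p = 0.000654). Ndufa13 was at 53.6 to 114 TPM (median 89.1) in Tert-123 tumours, and with the K5-Tert and Braf values above no tumour reached the pools, at 232, 140 and 147 TPM. Its fold change was -0.99 (SE 0.21, adjusted p = 0.00114), and both genes stayed called whichever library was left out.

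The other 3 falls were smaller and less firm. Atp5k had -0.76 (SE 0.27, adjusted p = 0.0388), with 1199, 864 and 619 TPM in the K5-Tert, Tert-123 and wild-type pools, and Tert-123 tumours reached 1170 TPM (median 636). Uqcrb, which lies beside the ubiquinone site of complex III, had -0.71 (SE 0.25, adjusted p = 0.0396), and Atp5d, the delta subunit of the rotor, -0.51 (SE 0.19, adjusted p = 0.0480). Uqcrb was at 265, 207 and 217 TPM and Atp5d at 227, 210 and 226 TPM in the K5-Tert, Tert-123 and wild-type pools, and Tert-123 tumour 7 was the only tumour to reach those levels (260 and 230 TPM). Each of the 3 genes lost its call when any 1 of the pools was left out.

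**Figure D4:**
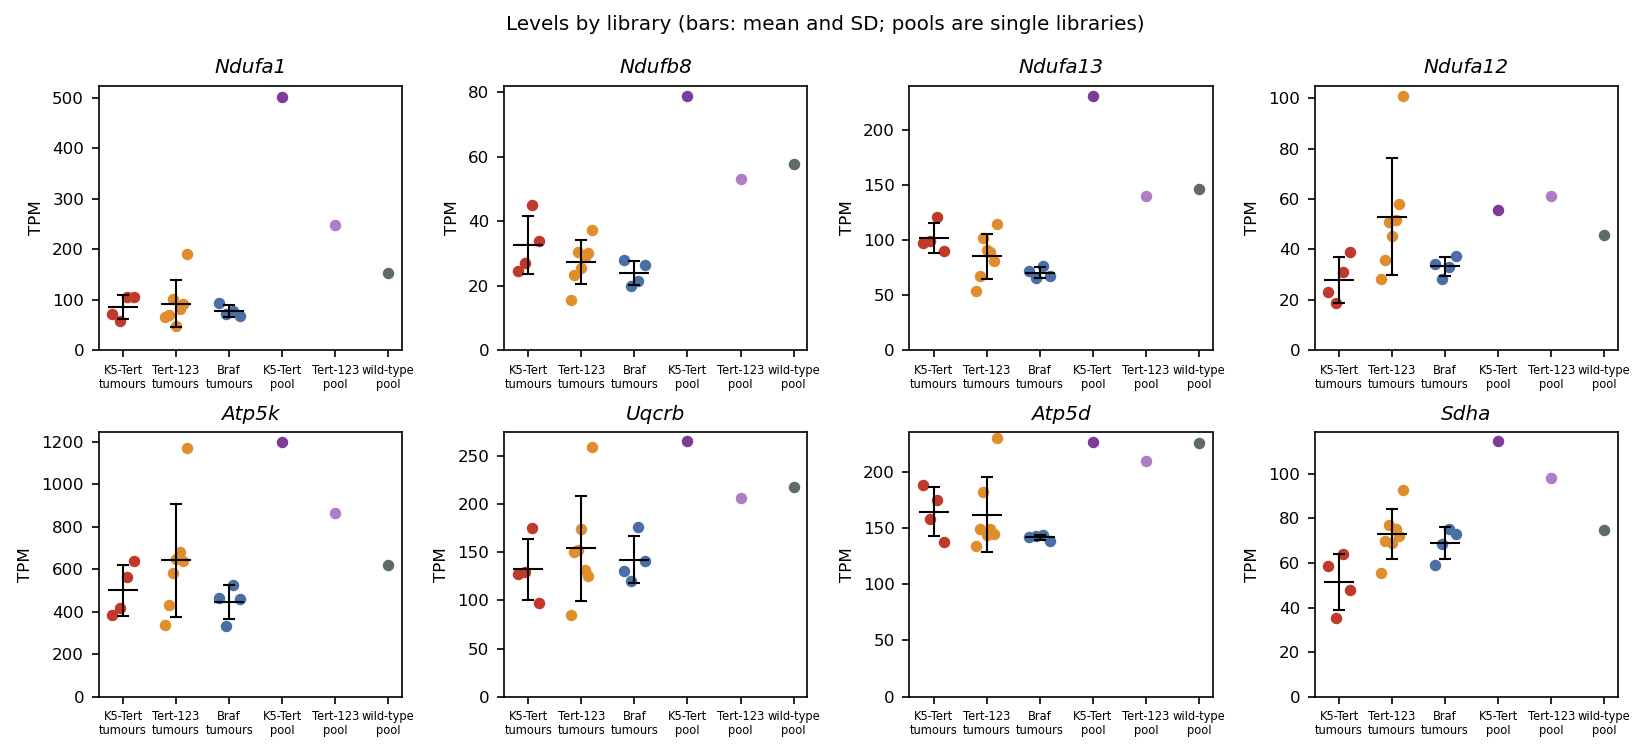
TPM of 8 subunits in every library, tumour groups left and single pools right (bars: mean and SD of the tumour groups). Ndufb8 and Ndufa13 are higher in all 3 pools than in any tumour, Ndufa1 is higher in the pools than in all tumours but Tert-123 tumour 7 (190 TPM), and Ndufa12 ranges from 28.4 to 101 TPM among Tert-123 tumours.

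With factors of the TMM type, 12 subunits fell and 0 rose between tumours and pools, against 18.5% and 21.8% of all entries. Besides the 6 above these were Sdha (-0.59, adjusted p = 0.000675), Sdhc (-0.58), Cox6a1 (-0.62), Ndufs1 (-0.43), Ndufs6 (-0.61) and Ndufv3 (-0.51). Sdha was at 115, 98.2 and 75.0 TPM in the K5-Tert, Tert-123 and wild-type pools, so that the wild-type pool lay within the tumour range. With the length trend of each library removed instead, 47 subunits fell and 0 rose, against 25.1% of all entries called lower and 17.4% called higher.

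Markers of other cell types differed along with this comparison. Besides the thyrocyte markers given above, macrophage and monocyte markers (13 genes) summed to 244 to 5664 TPM over the tumours, against 80.04, 363 and 71.5 TPM in the K5-Tert, Tert-123 and wild-type pools. Endothelial markers (7 genes) summed to 22.9 to 233 TPM over the tumours, against 215, 1891 and 643 TPM in the same pools, and C cell markers (5 genes) to 4.14 to 43.7 TPM over the tumours, against 247, 2071 and 393 TPM in them. T cell markers reached 190 TPM in the Tert-123 pool, against at most 43.9 TPM in any other library. The part of these cells in the fall of the 6 subunits was not tested.

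Relative to the mean of the Braf tumours, the K5-Tert pool had 65 of 77 subunits higher, the Tert-123 pool 52 and the wild-type pool 44. The median log2 differences, pool minus Braf tumours, were 0.65, 0.18 and 0.06, against 0.06, -0.34 and -0.32 over all entries. The pools are single libraries, so these differences have no replicate check. Some subunits were low in the Tert-123 and wild-type pools, such as Ndufb6, at 33.3, 28.9, 46.0 and 32.0 TPM in K5-Tert tumours, 28.6, 26.8, 31.6 and 27.8 TPM in Braf tumours, and 52.8, 16.8 and 12.6 TPM in the K5-Tert, Tert-123 and wild-type pools.

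Several complex IV subunits exist as broadly expressed and tissue-restricted isoforms, and the broad form prevailed in each pair. Cox6a1, Cox6b1, Cox7a2, Cox7b and Cox8a were all above 39 TPM in every library. Their restricted counterparts were low: the heart and muscle form Cox6a2 was listed at 0 in all K5-Tert tumours and pools and reached 2.14 TPM elsewhere, the testis forms Cox7b2 and Cox8c reached 5.98 and 10.7 TPM in single Tert-123 tumours, and Cox8b, a muscle and brown fat form, reached 10.3 TPM. Cox7a1, the muscle form, varied widely, at 14.7, 13.0, 3.49 and 0 TPM in K5-Tert tumours, 4.47, 2.62, 2.60 and 23.1 TPM in Braf tumours, and 21.7 TPM in the wild-type pool, where the other pools were listed at 0. Skeletal muscle markers (10 genes) summed to no more than 37.5 TPM in any library.

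Ndufa4l2, a relative of Ndufa4 known as a hypoxia-induced gene, did not pass the filter on low values. It was at 7.93, 6.34, 8.15 and 0 TPM in K5-Tert tumours, 0 to 3.88 TPM (median 1.73) in Tert-123 tumours, and 1.18, 0, 1.02 and 1.34 TPM in Braf tumours. K5-Tert tumours 1 to 3 were above every other tumour and K5-Tert tumour 4 was among the lowest. Of the pericyte and smooth muscle markers, Rgs5 had 10.1, 20.0, 29.2 and 2.57 TPM in K5-Tert tumours and at most 3.31 TPM in other tumours. Acta2 had 23.3, 25.1, 52.1 and 10.6 TPM in K5-Tert tumours and reached 35.2 TPM in Tert-123 tumour 4. The part of such cells in the values of Ndufa4l2 was not tested. Cox6b2, a form known from testis, was at 6.87, 4.64, 5.94 and 6.52 TPM in K5-Tert tumours, 0.485 to 25.2 TPM (median 14.1) in Tert-123 tumours and 6.73, 4.11, 9.57 and 8.82 TPM in Braf tumours, and it changed in no comparison.

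**Figure D5:**
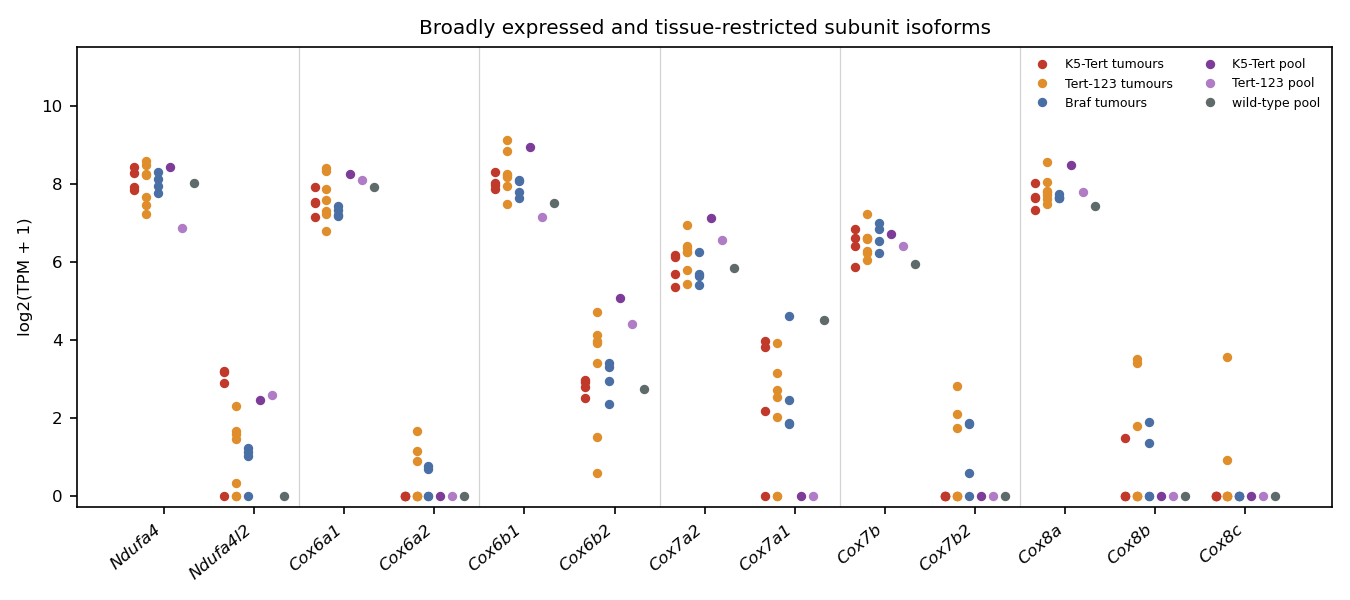
log2(TPM + 1) of broadly expressed subunits and their tissue-restricted relatives in every library, by group. Each broad form lies above its restricted relatives in every library, and Cox7a1, Cox6b2 and Ndufa4l2 are the restricted forms with values above 4 TPM in most libraries of at least 1 group.

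Subunits that the name patterns leave out were looked at beside the others. Of 6 tested, 0 passed as deposited in any comparison, with a median of -0.06 between K5-Tert and Braf tumours, and 2 rose with factors of the TMM type. One was Cox4i1, the main form of a core-flanking complex IV subunit, at 306, 399, 445 and 297 TPM in K5-Tert tumours, against 221, 258, 295 and 284 TPM in Braf tumours, without overlap (0.44, adjusted p = 0.143 as deposited; 0.97, adjusted p = 0.0172 scaled). The other was Usmg5, a small ATP synthase subunit (1.04, adjusted p = 0.0497 scaled).

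Other genes that mitochondria need did not follow the subunits in every comparison. Between K5-Tert and Braf tumours as deposited, the medians were -0.28 for 15 enzymes of the tricarboxylic acid cycle, -0.21 for 69 mitochondrial ribosomal proteins, -0.49 for 7 assembly factors of complex I and -0.27 for 19 of complexes II to V, against 0.08 for the subunits and -0.47 for all entries. With factors of the TMM type the same medians were 0.23, 0.31, -0.02 and 0.25, against 0.60 for the subunits and 0.02 for all entries. The part of transcript length in these medians was not tested. As deposited, 0 of these enzymes and 0 of these assembly factors passed, and 2 mitochondrial ribosomal proteins fell, Mrpl38 and Mrps22, where 21.2% of all entries were called lower. With factors of the TMM type these lost their calls (adjusted p = 0.367 and 0.453), while 5 other mitochondrial ribosomal proteins, 1 assembly factor of complexes II to V and 3 import genes rose, against 6.21% of all entries. The list of regulators of mitochondrial biogenesis had 8 tested entries. The only 1 that rose was Tert, which was on the list but is the gene of the transgene, so its rise was set by the design. Of the 8, 2 fell, Pprc1, a PGC-1 relative (-0.78, limma adjusted p = 0.0272), and Gabpb2, a GABP partner (-0.95, adjusted p = 0.0279). Neither passed with factors of the TMM type. Of 6 tested genes of coenzyme Q synthesis, Coq2 fell (-1.50, adjusted p = 0.0101), also on the scaled values (-1.03, adjusted p = 0.0283), and 0 of 21 genes of mitochondrial import and the outer membrane passed.

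Between tumours and pools, 15.4% of all entries were called higher and 10% lower. Of 14 listed complex I assembly factors 7 were tested, of which 3 rose and 0 fell. The 3 were Ndufaf1 (1.58), Ndufaf2 (1.53) and Acad9 (1.07), with adjusted p of 0.00777, 0.00532 and 0.00670 (limma). Of 37 tested complex I subunits 3 fell, near the share of all entries called lower. The limit of the filter given above for tumours and pools holds for these lists too: a gene expressed in the pools alone could not be tested. Of 19 assembly factors of complexes II to V, 2 rose, Coa4 and Sdhaf1, and 16 of 69 mitochondrial ribosomal proteins rose while 2 fell. In the tricarboxylic acid cycle, 3 of 15 enzymes fell and 0 rose: Pdha1, of pyruvate dehydrogenase (-1.09, adjusted p = 0.00301), Ogdh (-1.01) and Mdh2 (-0.77). Among import genes 4 of 21 rose, among them Timm10 (1.57) and Tomm5 (1.35), and of coenzyme Q genes 1 fell, Coq10b (-1.01). Between Tert-123 and Braf tumours, 0 members of any of these lists passed.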

How the data were processed

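Libraries came from low-input RNA of sorted cells, amplified by PCR and read as Illumina pairs, per the labels' series text. The deposited table, which the authors call normalized counts, held 23652 gene entries in 18 columns, and was read as TPM because each column sums to 1000000. No aligner, counter or build is given in the sources used here. Entries with date-like names (26) were dropped. Entries with at least 10 TPM in at least 4 of 18 libraries (7825) went into limma 3.58.1 (R 4.3.3) on the log2(TPM + 1) scale (mean-variance trend, two-sided, Benjamini-Hochberg over all entries, threshold 0.05). The 15 tumours shared 1 fit. The Braf comparison used all 18 libraries with the Tert allele as covariate. Fold changes on this scale understate changes of low genes. The fit was checked on simulated data. No 2 libraries had the same values.

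Copies were found with blastn 2.17.0 against GENCODE vM21 transcripts. Promoter letters came from RefSeq. Alternatives were other scalings, pseudocounts, filters, library weights, narrower fits and left-out libraries.

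The members and gene lists were chosen with earlier results of these data known. Named are members past the threshold, the 2 with smallest p and the highest per complex, all isoform pairs and Sdh genes, and the 5 highest and lowest in pools. Members called with TMM-type factors were named after their values were seen. Libraries are numbered in the order of the series.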

Additional observations from a re-analysis of the deposited data

Results flagged for a closer look

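Among 41 named subunits, 12 values stood far from the other libraries of their group in a gap test (Dixon) run on 119 groups of 4 or 7 libraries, and chance flags about 1 in 20 groups. Of these, 7 came from Tert-123 tumour 7, which was the highest of its group for Atp5k (1170 TPM, next 681), Cox7b (149 TPM), Cox8a (375 TPM), Ndufa1 (190 TPM), Ndufa12 (101 TPM), Uqcrh (650 TPM, next 328) and Uqcrq (83.5 TPM). In the same library Rpph1 took 43.7% of all TPM, the lowest share of the 18. Sdhb was high in Tert-123 tumour 4 (87.9 TPM, next 55.1) and Sdhc in K5-Tert tumour 3 (68.3 TPM, next 42.0). Among low isoforms, Cox7a1 was high in Braf tumour 4 (23.1 TPM, next 4.47), Cox8c in Tert-123 tumour 3 (10.7 TPM) and Cox8b in K5-Tert tumour 3 (1.81 TPM, others listed at 0).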

How the results depend on the processing

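The number of subunits called depended on scaling in each comparison that made calls. Between K5-Tert and Braf tumours, 0 higher and 0 lower as deposited became 21 higher with factors of the TMM type, 4 with quantile normalization, 7 without Rpph1, 11 with the length trend removed, 5 higher and 5 lower with library weights, and 1 higher with only the compared groups fitted. Over all entries the same settings called 486, 220, 135, 312, 105 and 38 higher, and 4900 lower with library weights. In each comparison these settings tested 7825 entries and 77 subunits, with 2 exceptions. Without Rpph1 there were 10819 entries and 78 subunits, and with the length trend removed 7773 entries. Leaving out each library gave 0 to 1 higher (Ndufs5, without Tert-123 tumour 7 or K5-Tert tumour 1) and 0 lower. Between K5-Tert and Tert-123 tumours the same settings gave 21, 2, 10, 10 and 1 higher, and 0 lower except with library weights (5); without a filter, with a filter at 50 TPM or with only the compared groups fitted, 0 were lower, all entries had 549, 247, 192, 350 and 88 higher and 4681 lower with library weights, and leaving out each library gave 0 to 2 higher and 0 to 4 lower. Between tumours and pools, against 6 lower, there were 12 with factors of the TMM type, 15 lower and 1 higher with quantile normalization, 16 and 1 without Rpph1, 47 with the length trend removed and 12 and 9 with library weights, where all entries had 1448, 1432, 1556, 1951 and 1062 lower, and 3327 higher with library weights; leaving out each library gave 3 to 9 lower and 0 to 1 higher, with 3 lower without Braf tumour 2, the K5-Tert pool or the Tert-123 pool. Chosen after seeing the data, factors of the TMM type with K5-Tert tumours 2 and 4 left out gave 0 higher in both K5-Tert comparisons and 21 lower between tumours and pools; with tumours 2, 3 and 4 left out 0 and 29; and with Tert-123 tumour 7 left out 22, 25 and 14. The cause of these shifts was not tested. In Tert-123 against Braf tumours, every alternative run gave 0 calls, and Ndufa1, Ndufb8 and Ndufa13 stayed lower in tumours under every alternative run. No named subunit that passed under either setting changed sign, but values that did not pass could: the subunit median between K5-Tert and Tert-123 tumours was -0.07 as deposited and 0.45 with factors of the TMM type. No paired analysis was possible because the labels give no replicate numbers. The depth is unknown, which limits what low isoforms can show.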
